A study of Mus musculus with 28 samples.

Results

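The Pax genes encode the paired domain transcription factors of the mouse, and all 9 of them, *Pax1* to *Pax9*, were read in CnR profiles of striatal medium spiny neurons (MSNs). They were chosen by name, as 9 of 21951 protein-coding genes of the GENCODE vM21 annotation, and every one was found there. The study combined INTACT, the capture of nuclei by a tagged nuclear membrane protein, with CUT&RUN (CnR), in which a nuclease tethered to an antibody releases the chromatin under it, and called the combination ICuRuS. Mice were C57BL/6J, of both sexes and about 8 weeks old, and carried the *Sun1-sfGFP* allele, which needs Cre to be expressed. A2a nuclei came from mice that also carried *A2a-cre*, which marks the MSNs of the indirect pathway, and D1 nuclei from mice with *Drd1-cre*, which marks those of the direct pathway. The labels name no treatment, each reaction used the nuclei of a single striatum, and the nuclei in a group are those in which the driver was active, whatever else they are. Of 28 samples in the series, 8 enter the 4 lists read here, and each list pools 2 replicates of a cell type and a mark (H3K4me3 with the Abcam antibody, H3K27me3 with the Active Motif antibody). The other 20 samples were not analysed here.

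Pax proteins bind DNA through the paired domain, and several also through a homeodomain, and they set the identity of organs and regions in the embryo. They are grouped by sequence into *Pax1* and *Pax9* (sclerotome, the source of the vertebrae), *Pax2*, *Pax5* and *Pax8* (midbrain-hindbrain boundary, kidney, B cells, thyroid), *Pax3* and *Pax7* (dorsal neural tube, neural crest, muscle progenitors), and *Pax4* and *Pax6* (pancreatic islet, eye, cortex). H3K4me3 is found at the starts of active genes, while H3K27me3 is laid down by Polycomb repressive complex 2 and covers many developmental genes in cells that do not use them. None of the Pax genes is among the usual markers of mature MSNs.

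Sequences at annotated starts of 4 members are shown first, to give the bases that the islands cover. The start of a gene (TSS) was its annotated 5′ end, and the promoter was taken as the stretch from 2 kb upstream to 1 kb downstream. RefSeq (GRCm38.p6) gave 10 windows of 300 bases, 250 before and 50 after a start, for 7 of the 9 members, and none for *Pax3* and *Pax4*. The window closest to the annotated 5′ end is printed for each subgroup, 5′ to 3′ on the strand of the gene, with every CG dinucleotide (CpG) in capitals.
*Pax1*, chr2:147364744-147365043, + strand: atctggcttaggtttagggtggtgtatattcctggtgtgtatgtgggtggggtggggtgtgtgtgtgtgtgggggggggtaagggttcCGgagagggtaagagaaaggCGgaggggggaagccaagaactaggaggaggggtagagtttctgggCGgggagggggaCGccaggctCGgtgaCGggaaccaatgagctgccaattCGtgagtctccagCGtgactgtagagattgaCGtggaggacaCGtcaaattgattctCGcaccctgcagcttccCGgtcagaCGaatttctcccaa
*Pax8*, chr2:24475550-24475849, − strand: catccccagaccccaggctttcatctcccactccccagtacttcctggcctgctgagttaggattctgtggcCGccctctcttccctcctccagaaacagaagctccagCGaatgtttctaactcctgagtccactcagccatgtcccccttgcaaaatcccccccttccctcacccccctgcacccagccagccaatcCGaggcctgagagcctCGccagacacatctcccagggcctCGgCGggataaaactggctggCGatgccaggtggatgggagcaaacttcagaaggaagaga
*Pax7*, chr4:139832919-139833218, − strand: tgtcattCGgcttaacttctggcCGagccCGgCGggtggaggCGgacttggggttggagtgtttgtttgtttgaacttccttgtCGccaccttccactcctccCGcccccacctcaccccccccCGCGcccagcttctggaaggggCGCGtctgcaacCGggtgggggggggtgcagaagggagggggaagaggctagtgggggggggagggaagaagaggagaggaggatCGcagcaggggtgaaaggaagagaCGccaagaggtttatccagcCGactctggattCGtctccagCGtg
*Pax6*, chr2:105668646-105668945, + strand: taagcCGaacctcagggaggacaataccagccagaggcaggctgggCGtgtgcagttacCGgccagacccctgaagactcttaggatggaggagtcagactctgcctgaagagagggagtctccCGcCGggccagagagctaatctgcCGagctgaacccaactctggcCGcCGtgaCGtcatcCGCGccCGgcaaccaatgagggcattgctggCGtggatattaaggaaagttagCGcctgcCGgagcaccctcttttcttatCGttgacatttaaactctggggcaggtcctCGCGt

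The RefSeq start of the *Pax1* window lies 3.07 kb inside the gene as GENCODE annotates it, and so outside the promoter stretch read below, and that of *Pax7* lies 0.56 kb inside. The windows of *Pax1*, *Pax8*, *Pax7* and *Pax6* printed above held 13, 7, 17 and 18 CpG. Over all 10 Pax windows the count ran from 7, at *Pax8* and the most upstream of 3 *Pax2* starts, to 30, at the most downstream *Pax2* start, with a median of 16.5. The median was 7 over all 32851 windows of that length. At least 20 CpG were counted in 3 of the 10, those of *Pax5* and the other *Pax2* starts, and in 26.5% of all windows. Among windows of protein-coding genes with H3K27me3 alone at the promoter the median was 6 in A2a and 8 in D1, among those with both marks it was 17 and 18, and among those with H3K4me3 alone it was 21 in both. All 10 windows lay wholly inside an H3K27me3 island in A2a and in D1, and an H3K4me3 peak touched none of them. For neither count was the share over all windows computed. CG reads the same on both strands, so each was counted once.

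Across the whole series, the A2a and D1 lists held 22551 and 20080 H3K4me3 peaks and 60191 and 45760 H3K27me3 islands. The A2a islands summed to 301.0 Mb and the D1 islands to 184 Mb, at 73.4 and 42.8 reads per kb on average, so read counts and lengths of the cell types are not on the same scale. No list holds a library total, and the study gives only a range of reads over all samples, so the depth behind each list is not known. Islands at the A2a and D1 marker genes followed the labels. *Adora2a*, the A2A receptor gene, had no island in A2a and one of 45 kb in D1, and *Tac1*, which encodes substance P and marks D1 MSNs, had an island of 61 kb in A2a and of 2.8 kb in D1. All 3 A2a markers (*Adora2a*, *Drd2*, *Penk*) and all 3 D1 markers (*Drd1*, *Pdyn*, *Tac1*) carried promoter H3K4me3 in both lists. Of 3 markers of all striatal projection neurons, *Ppp1r1b* and *Bcl11b* carried H3K4me3 without an island in both lists. The third, *Gad1*, had neither mark at its promoter in either list, so a missing peak there does not tell whether a gene is used. Of 14 markers of other brain cells, 6 carried it in A2a and 4 in D1, against 58.2% and 55.8% of protein-coding genes. Of the 3 astrocyte markers, *Gfap* and *Aqp4* had neither mark in either list, while *Slc1a3* had both marks in both. The oligodendrocyte marker *Mbp* carried H3K4me3 in both lists, at percentiles 88.1 in A2a and 80.7 in D1. The part of other cells in the values below was not tested. For the D1 H3K27me3 samples, title and cell type name D1 while the source name says A2a. The list was read as D1 throughout, and each comparison of islands between the cell types rests on that reading.

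All 9 Pax promoters lay in an H3K27me3 island in A2a and all 9 in D1, against 21.6% and 15.3% of protein-coding genes. H3K4me3 was listed at 1 of 9 Pax promoters in A2a, that of *Pax6*, and at 0 of 9 in D1, where 58.2% and 55.8% of protein-coding promoters carried it. H3K27me3 without H3K4me3 was therefore the state of 8 Pax promoters in A2a (12.1% of protein-coding genes) and of 9 in D1 (9.71%), and both marks were listed at 1 and 0 (9.53% and 5.56%). No Pax promoter had H3K4me3 alone (48.7% and 50.2%) or neither mark (29.7% and 34.5%). With 2 replicates pooled in each list there is no replicate error, so these counts are given as a description without a test. A promoter without a listed peak carried no peak past the threshold of the authors at this depth, which is not the same as no H3K4me3.

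**Figure D1:**
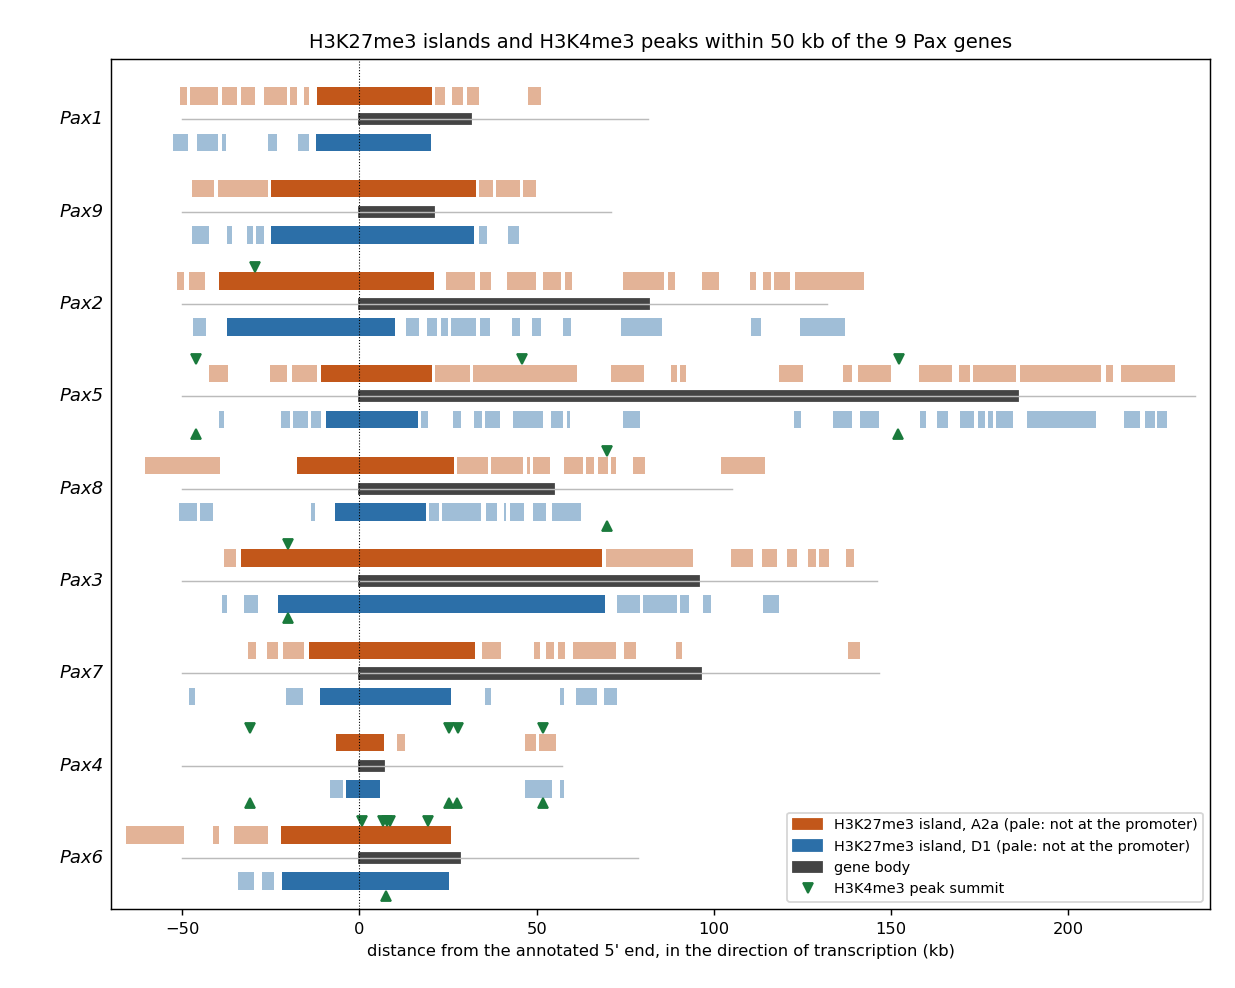
H3K27me3 islands (bars, A2a above the gene and D1 below it) and H3K4me3 peak summits (triangles) within 50 kb of each Pax gene, by distance from the annotated 5′ end in kb. Every gene has a saturated bar, the promoter island, over its start in both cell types, and *Pax6* alone has a triangle close to its start, in A2a.

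Each Pax promoter lay in a single island per list, and that island was the longest and, in reads per kb, the densest of all islands within 50 kb of the gene, at 9 of 9 members in A2a and 9 of 9 in D1. How often this holds at other genes with a promoter island was not counted. Islands over 20 kb covered 8 of 9 Pax promoters in both lists, where 2.42% and 1.32% of protein-coding promoters had one. The Pax promoter islands had a median length of 46.8 kb in the A2a list and 36.8 kb in the D1 list. Over all protein-coding genes with a promoter island, the median was 6.2 kb (4752 genes) and 4.8 kb (3352 genes). Read density was also higher, with medians of 166 and 79.4 reads per kb for the Pax genes and 76.7 and 46.3 for all such genes.

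**Figure D2:**
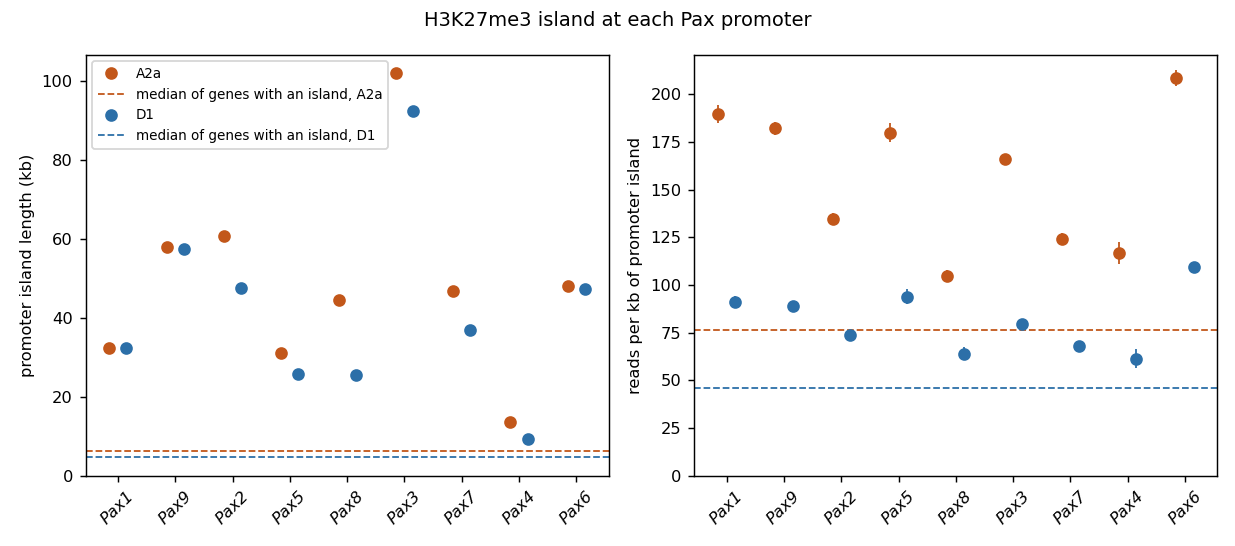
Length in kb (left) and reads per kb (right) of the promoter island of each Pax gene in A2a and D1, with vertical lines for the exact 95% Poisson interval of the read count and dashed lines for the median over all protein-coding genes with a promoter island. All members lie above the dashed line of their cell type in both panels, *Pax3* is the longest and *Pax4* the shortest.

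*Pax1* and *Pax9*, which act in the sclerotome, had nearly the same island in both cell types. *Pax1* (chr2:147361925-147393295, + strand) was covered by 32.4 kb in A2a and 32.4 kb in D1, with 6141 and 2954 reads. *Pax9* (chr12:56691767-56712822, + strand) had islands of 57.8 and 57.4 kb with 10530 and 5103 reads. The *Pax9* island ran from 25 kb upstream of the start to beyond the end of the gene, and covered 100% of the gene body in both lists. In *Pax1* it ended inside the gene, at 20.5 kb from the start in A2a and 20.3 kb in D1, and islands covered 86.6% and 64.6% of the body. In reads per kb the pair stood at 190 and 182 in A2a and at 91.2 and 88.9 in D1. No H3K4me3 peak was listed within 50 kb of either gene, and the closest to the promoter was 91.9 kb away at *Pax1* and 52.4 kb away at *Pax9* in A2a.

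Among *Pax2*, *Pax5* and *Pax8*, the promoter islands were longer in A2a than in D1 at each member. *Pax2* (chr19:44756045-44837871, + strand), a regulator of kidney and optic stalk, had 60.6 kb with 8170 reads in A2a and 47.4 kb with 3512 reads in D1. The island of *Pax5* (chr4:44524757-44710487, − strand), which commits lymphoid progenitors to the B cell lineage, measured 31.2 kb with 5616 reads and 25.8 kb with 2423 reads. *Pax8* (chr2:24420560-24475599, − strand), required for the follicular cells of the thyroid, differed most, with 44.4 kb and 4661 reads against 25.6 kb and 1642 reads. *Pax5*, the longest of the Pax genes at 186 kb, had the lowest share of its body under islands in A2a, 62.5%, and 40.1% in D1. Its promoter island took only 33.1% and 36.6% of all island reads of its neighbourhood, the lowest shares among the members in each list. The rest lay in smaller islands along the gene and in its flanks. Of the 18 islands in A2a, 12 touched the gene body, and of the 26 in D1, 18 did. *Pax8* was the least dense Pax promoter island in A2a, at 105 reads per kb (95% Poisson interval 102 to 108, counting error only), and stood at 64.1 in D1.

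*Pax3* and *Pax7*, the genes of muscle progenitors and of the dorsal neural tube, shared long genes without annotated neighbours within 50 kb. *Pax3* (chr1:78101267-78197134, − strand) carried the longest Pax promoter island, 101.8 kb with 16894 reads in A2a and 92.4 kb with 7338 reads in D1. By reads it ranked 7 of 60191 islands in A2a and 8 of 45760 in D1, and by length 10 and 7. It began 33.5 kb upstream of the start in A2a and 23.1 kb upstream in D1, and reached 68.3 and 69.3 kb into the gene. *Pax7* (chr4:139737062-139833528, − strand), which marks satellite cells of muscle, has a gene of nearly the same length (96.5 against 95.9 kb) but an island of 46.8 kb with 5816 reads in A2a and of 36.8 kb with 2502 reads in D1. Islands covered 96.9% of the *Pax3* body and 63.4% of the *Pax7* body in A2a, and 91.9% and 39.3% in D1.

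*Pax4* had the shortest promoter island of the family and *Pax6* the densest. *Pax4* (chr6:28442334-28449353, − strand), a gene of islet beta cell development, is also the shortest gene, at 7.02 kb, and its island measured 13.6 kb with 1590 reads in A2a and 9.4 kb with 578 reads in D1. Its island percentile by reads was 97.5 in A2a and 96.6 in D1, the lowest of the family, and islands covered 22.1% and 19.7% of its neighbourhood. *Pax6* (chr2:105668900-105697364, + strand), needed for the eye and for cortical progenitors, had 48 kb with 10006 reads in A2a and 47.2 kb with 5157 reads in D1. Its islands were the densest of the family, at 208 reads per kb in A2a (95% Poisson interval 204 to 213) and 109 in D1 (106 to 112). Among protein-coding genes with a promoter island, *Pax6* stood at percentile 99.8 of density in A2a and 99.4 in D1.

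**Figure D3:**
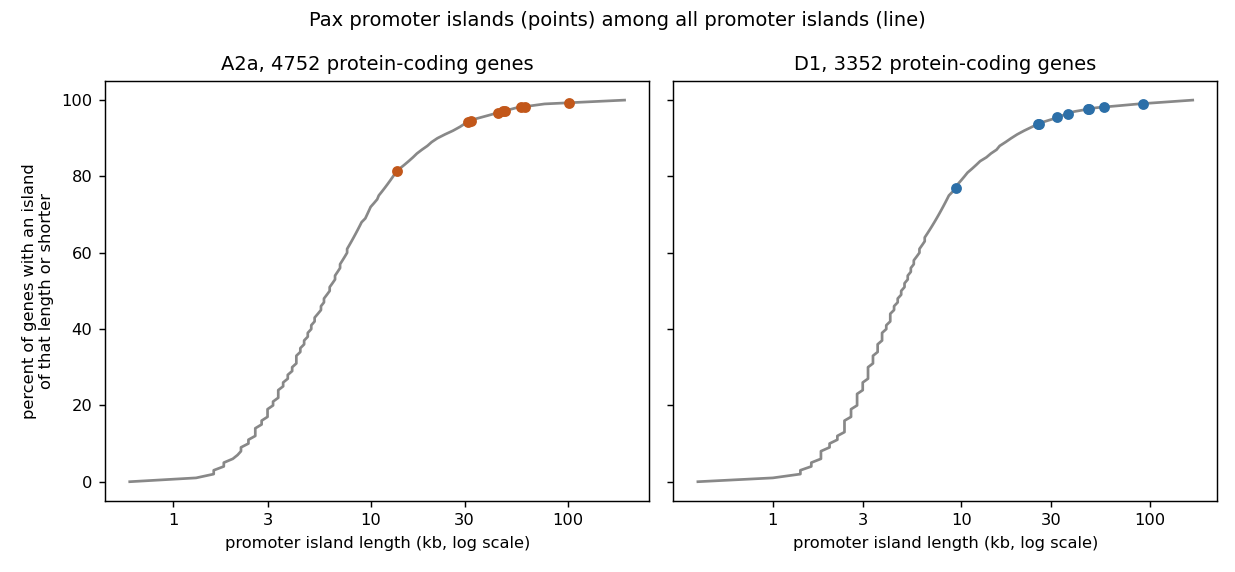
Share of protein-coding genes whose promoter island is of a given length or shorter (line, percent) against island length in kb on a log scale, with the 9 Pax genes as points, in A2a and D1. In each panel 8 points lie above 90% and the lowest, *Pax4*, near 80%.

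Around the genes, the promoter island was joined by further islands. An island lay in the body of all 9 genes in both lists (27.7% and 21% of protein-coding genes) and within 50 kb of all 9 (66.1% and 53.1%). Within 50 kb of the members there were 92 islands in A2a (4 to 18 per gene) and 85 in D1 (3 to 26). Together with the promoter island, which is among them, they covered a median of 62.5% of the neighbourhood in A2a (22.1% to 77.1%) and 43.5% in D1 (19.7% to 63%), where the median over all protein-coding genes was 3.87% and 1.20%. Among protein-coding genes that themselves had a promoter island it was 20.8% and 13.4%. The gene bodies were covered to a median of 91.0% in A2a and 80.7% in D1. The promoter island held between 33.1% and 83.3% of the island reads of a neighbourhood in A2a and between 36.6% and 95.2% in D1, with the highest share at *Pax9* in A2a and at *Pax6* in D1.

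Set side by side, A2a and D1 islands of the Pax genes had similar outlines. The promoter island was longer in A2a at 8 of 9 members and equal at *Pax1*. Over the 3132 protein-coding genes with a promoter island in both lists, 20.4% had an A2a island no longer than the D1 island. The whole D1 island lay inside the A2a island at 7 members, and at *Pax1* and *Pax3* 99.4% and 98.9% of it did. For this overlap no share over all genes was computed. The ratio of the length in A2a to that in D1 was 1 at *Pax1*, 1.01 at *Pax9*, 1.02 at *Pax6*, 1.10 at *Pax3*, 1.21 at *Pax5*, 1.27 at *Pax7*, 1.28 at *Pax2*, 1.45 at *Pax4* and 1.73 at *Pax8*. The median of 1.21 compares with 1.40 over the 3132 protein-coding genes that had a promoter island in both lists. Of the 9 members, 7 lay under 1.40. Over the 1195 of these genes with an A2a island over 10 kb, the median was 1.57. With islands within 5 kb merged, the Pax median rose to 1.42, and the median over all genes was not recomputed. Reads per kb in A2a over D1 had a median of 1.91 (1.64 at *Pax8* to 2.09 at *Pax3*), against 1.88 over the 3132 genes. Of the 9 members, 8 lay within the interquartile range of 1.66 to 2.1. Relative to all genes, then, no Pax gene apart from *Pax8*, below that range, had a density ratio outside it. Without replicates in the lists, none of these differences between cell types could be tested.

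H3K4me3 peaks lay in the bodies of few Pax genes, while the counts within 50 kb were not far from the share over all genes. A peak lay within 50 kb of 6 members in A2a (80.2% of protein-coding genes) and of 5 in D1 (78.3%), and inside the gene body of 2 members in each, *Pax5* and *Pax6* (63.3% and 60.6%). In all, 15 peaks were listed in A2a and 9 in D1. Of these, 7 in A2a (at *Pax2*, *Pax3* and *Pax6*) and 2 in D1 (at *Pax3* and *Pax6*) lay inside the promoter island of the same list. Those peaks ranked low by −log10 q, between percentiles 8 and 32.8 of the A2a list and between 8.13 and 21.6 of the D1 list, while the peaks outside ran from 19.1 to 94.4 and from 25.4 to 96.7.

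*Pax6* had 5 of the 7. In A2a the peak at its promoter was 479 bp long, with its summit 0.734 kb past the annotated start, a fold enrichment of 3.35 and a −log10 q of 6.19. It lies in an intron of *Pax6* and of the antisense gene *Pax6os1*, whose start is 0.646 kb from the summit. CnR reads carry no strand of transcription, so it cannot be given to either gene. A group of 3 further peaks followed, with summits at 6.70, 7.68 and 8.73 kb and folds of 2.83, 2.73 and 2.88, next to a group of annotated *Pax6* transcript starts from 6.21 to 7.23 kb. The last stood at 19.3 kb, in an intron, with a fold of 5.12. In D1 a single peak of 1462 bp was listed, at 7.49 kb, with a fold of 4.07 and a −log10 q of 10.4, and it overlapped the first of the 3 A2a peaks near 7 kb and the one after it. All 6 peaks lay inside the promoter island of both lists. Counted at the start of any annotated transcript, *Pax6* thus had H3K4me3 with H3K27me3 in both cell types. The lists were made from many nuclei, and whether both marks were on the same chromatin cannot be read from them.

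**Figure D4:**
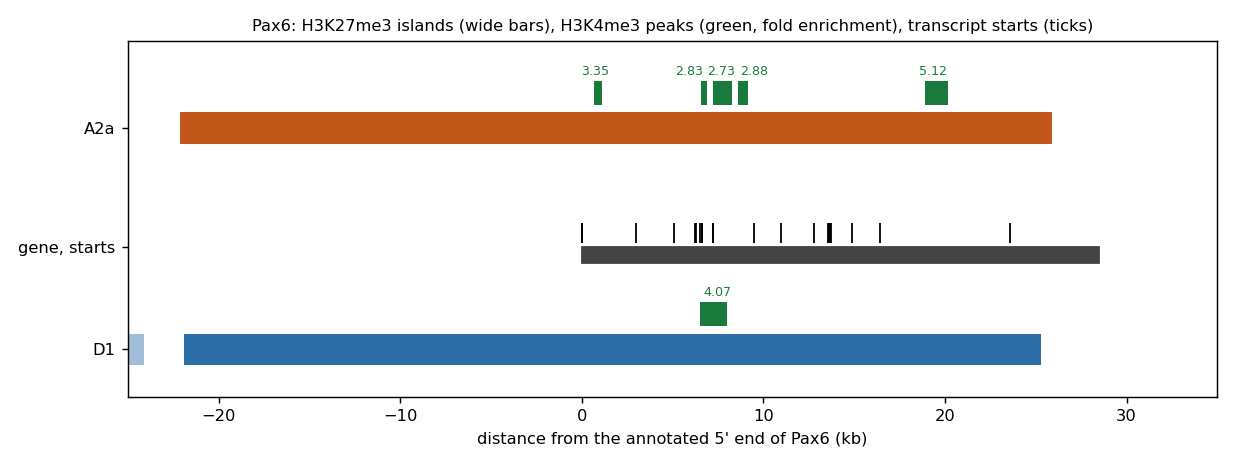
H3K27me3 islands (wide bars) and H3K4me3 peaks (green boxes, labelled with their fold enrichment) along *Pax6* in A2a and D1, with annotated transcript starts as ticks over the gene, by distance from the annotated 5′ end in kb. The 5 A2a peaks and the D1 peak all stand within the extent of the islands, and the D1 peak sits at the ticks near 7 kb.

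*Pax3* had a peak 20.2 kb upstream of its start in both lists, with folds of 4.88 in A2a and 3.94 in D1, inside the promoter island and in no annotated gene. At *Pax2*, a peak 29.4 kb upstream was listed in A2a, with a fold of 7.42 and the highest percentile, 32.8, of the peaks inside Pax promoter islands, and none was listed there in D1. *Pax5* carried an intronic peak 152 kb from its start, outside every island of both lists, with folds of 14.3 and 7.81. A second intronic peak, at 45.8 kb in A2a alone (fold 5.08), lay 0.288 kb from the start of the antisense gene *Gm12462*. The remaining peaks, all in both lists, stood within 1 kb of an annotated transcript start of another gene, *Zcchc7* near *Pax5*, *Psd4* near *Pax8*, and *Zfp800*, *Gcc1* and *Snd1* near *Pax4*. At *Psd4*, *Gcc1* and *Snd1* that transcript start is not the 5′ end of the gene, so these peaks do not count at their promoters below. Of the 2 peaks at *Gcc1* transcript starts, the one 25.2 kb past the *Pax4* start also spans the 5′ end of *Arf5*. It therefore counts at the *Arf5* promoter below. None was listed near *Pax1*, *Pax7* or *Pax9*. A peak in 1 list alone may lie just under the threshold in the other, and the difference was not tested.

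Of 32 annotated genes with a body within 50 kb of a Pax gene, 21 had promoter H3K27me3 in A2a and 18 in D1, where 19.3% and 13.1% of all 55450 annotated genes had it. These counts include genes whose start lies inside a Pax promoter island. Their H3K27me3 is that same island, so they are not separate from the Pax counts above. Promoter H3K4me3 was listed at 8 and 4 of them, with a background of 30.1% and 28.6%. Of the 9 that code for protein, 3 had H3K27me3 in each list (*Slc25a21*, *Psd4* and *Zfp800*), beside 21.6% and 15.3% of all protein-coding genes. H3K4me3 was listed at 5 and 4 of the 9, among them *Elp4* and *Arf5*, near the 58.2% and 55.8% of all protein-coding genes. Not all of these promoters lie in the neighbourhood, since a gene was taken by its body. The start of *Slc25a21* is 506 kb from that of *Pax9*, *Elp4* 236 kb from *Pax6* and *Psd4* 108 kb from *Pax8*. That of *Arf5* is 25.8 kb from *Pax4*. The promoter islands of *Pax1*, *Pax9*, *Pax2*, *Pax5* and *Pax6* also held the start of a noncoding gene or pseudogene in both lists, such as *Paupar*, 7.56 kb from the *Pax6* start, and no island held the start of another protein-coding gene.

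The partners of Pax proteins in the Pax-Six-Eya-Dach network, which acts in eye, kidney and muscle, were less uniform. Of 12 such genes, 10 had promoter H3K27me3 in A2a and 9 in D1 (21.6% and 15.3% of protein-coding genes). Promoter H3K4me3 was listed at 8 in each, near the background of 58.2% and 55.8%. Both marks were listed at 6 and 5 of the 12 (9.53% and 5.56%). *Six2*, *Six6* and *Eya2* were among those with H3K27me3 alone, with islands in A2a of 33.4, 55.8 and 4.4 kb. *Six5* and *Eya3* carried H3K4me3 alone, as did *Dach1* in D1. *Six3*, a gene of the ventral forebrain, had a peak at percentile 81.6 in A2a and 61.3 in D1 together with islands of 9.2 and 2.2 kb.

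Among 28 genes that act with or under Pax genes, in 6 lists, 24 had promoter H3K27me3 in A2a and 21 in D1 (21.6% and 15.3% of protein-coding genes). Promoter H3K4me3 was listed at 6 and 5 of the 28 (58.2% and 55.8%). The 6 genes of the midbrain-hindbrain boundary (*En1*, *En2*, *Wnt1*, *Fgf8*, *Gbx2*, *Otx2*), which work with *Pax2* and *Pax5*, all had islands in both lists, from 2.4 kb at *Wnt1* to 78.4 kb at *En2* in A2a. So did the 4 muscle genes, of which *Met* alone had H3K4me3, and both sclerotome genes, where *Nkx3-2* had 38.4 and 38.6 kb. Of 8 islet and thyroid genes, 6 had an island in A2a and 4 in D1, and the hormone genes *Gcg* and *Ins2* had neither mark. Of 4 B cell genes, 3 and 2 had an island. *Ebf1*, which acts with *Pax5* in B cells, had 70.8 kb in A2a against 1.4 kb and an H3K4me3 peak in D1. Of the 4 genes of eye and cortex, 3 had an island in each list, with *Neurog2* carrying both marks and *Mitf* H3K4me3 alone. A difference of the size of that at *Ebf1* was not seen at a Pax promoter.

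**Figure D5:**
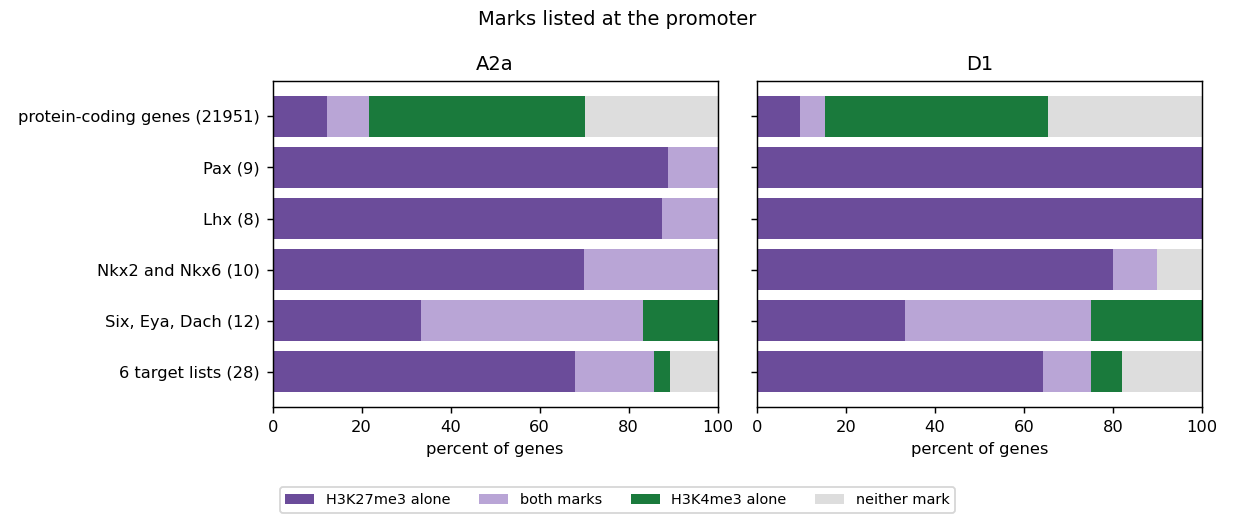
Percent of genes with H3K27me3 alone, both marks, H3K4me3 alone or neither mark at the promoter in A2a and D1, for all protein-coding genes, the Pax genes and the gene lists named in the text, with the number of genes in brackets. The Pax bar is all H3K27me3 alone in D1 and has 1 gene with both marks in A2a.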

How the data were processed

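Paired-end CnR reads were aligned by the authors (mm10; Bowtie2 2.1.0, SAMtools 0.1.19), and deduplicated pairs of mapping quality 20 or more with inserts between 150 and 500 bp were kept. For H3K4me3 the authors ran MACS2 (q of 0.01) and deposited, for each peak, a fold enrichment (a ratio over local background) and a −log10 q. For H3K27me3 they ran SICER (window 200 bp, gap 600 bp, false discovery rate 0.01), whose control library is not given in the sources used here. The deposited island value is a read count, not normalized. All 4 lists pool 2 replicates, so no test was run, and the depth behind each list is not known.

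Promoters (2 kb upstream to 1 kb downstream of the GENCODE vM21 5′ end, GRCm38, counted from 1), gene bodies and 50 kb flanks were intersected with the lists at 1 bp or more. Percentiles are ranks within a list, by −log10 q or reads. Read counts have exact Poisson intervals (95%), for counting error only. Backgrounds are all 21951 protein-coding genes. Genes named are the 9 members, their neighbours within 50 kb, fixed lists of partners, targets, cell markers and the *Lhx* and *Nkx* families, and the gene most like each member over 4 percentiles (promoter island length and strongest promoter peak, in A2a and D1). Members and lists were chosen with earlier results of these data known. A few genes of these lists are not reported here by name. Windows, transcript starts, overlaps, thresholds, merging and flanks were varied. Computations ran in Python 3.11.15 with numpy 2.4.6, scipy 1.17.1, pandas 2.3.3 and matplotlib 3.10.9, and the overlap code was tested on simulated data.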

Additional observations from a re-analysis of the deposited data

How the results depend on the processing

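The 15 values (counts and medians) were recomputed under 11 alternatives, 97 values in all, of which 90 stayed within 1.5 times the count or within the interval of the median over the members, 7 moved and 0 reversed. The change of background cannot alter a count of members, so its values were the same by construction. Promoter islands of 9.4 to 101.8 kb span the starts. Windows, overlaps and a minimum island length could therefore hardly change the promoter H3K27me3 values. The 90 are not independent checks. With the start of any annotated transcript, promoter H3K4me3 and both marks were each listed at 1 Pax gene in D1, *Pax6*, and the percentile of the strongest *Pax6* promoter peak moved to 21.6 in A2a, while the D1 peak, with no such value otherwise, stood at 21.6. With islands within 5 kb merged, the median promoter island was 97 kb in A2a and 59.4 kb in D1, its density 97.6 reads per kb in A2a, and the median density ratio of A2a over D1 was 1.76. The median length ratio of A2a over D1 rose from 1.21 to 1.42, within its wide interval of 1.01 to 1.45, and so was not counted as moved. Merging joins an island to its neighbours across uncounted gaps, which lengthens it and lowers its density by construction. All 9 promoters had H3K27me3 in both lists under each window, overlap, island and start tried. Taking the 5′ end of RefSeq, chosen after seeing the data, changed none of the 3 counts. Against all 55450 annotated genes, the background was 30.1% and 28.6% for H3K4me3, 19.3% and 13.1% for H3K27me3, and 4.96% and 2.87% for both, in A2a and D1. No paired analysis was possible because each list pools its replicates, and for the same reason no replicate could be left out. Unknown depth limits what the absence of a peak says, and the unequal totals of the H3K27me3 lists limit comparisons of island length between A2a and D1.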

Other observations

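Other developmental homeobox families had a like state. All 8 *Lhx* genes had promoter H3K27me3 in both lists (21.6% and 15.3% of protein-coding genes). H3K4me3 was listed at 1 of them, *Lhx2*, in A2a and at 0 in D1 (58.2% and 55.8%). Of 10 *Nkx2* and *Nkx6* genes, 10 had promoter H3K27me3 in A2a and 9 in D1, and 3 and 1 had H3K4me3. Their longest promoter island was that of *Nkx2-1*, a gene of the ventral forebrain, at 105 kb in A2a and 49.8 kb in D1. The median promoter island of the *Lhx* genes was 28.5 kb in A2a and 23.4 kb in D1, and that of the *Nkx* genes 31.3 and 29.4 kb, where the Pax genes had 46.8 and 36.8 kb. *Lhx2* had an island of 34 kb in A2a and of 7 kb in D1, a wider difference than at any Pax gene.

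Over the 4 percentiles, the protein-coding gene closest to each Pax gene was *Sox14* for *Pax1*, *Foxe3* for *Pax9*, *Fezf1* for *Pax2*, *Foxb1* for *Pax5*, *Irx1* for *Pax8*, *Ptf1a* for *Pax7* and *Foxd2* for *Pax6*. *Pax3* was equally close to *Drd5*, a dopamine receptor gene, and *Otop1*, which lie in the same promoter island of 128.8 kb in A2a. The next closest genes to *Pax1* were *Rsrc1* and *Shox2*, equally close and with the same island lengths (32 kb in A2a and 31.2 kb in D1). For *Pax5* they were *H60b* and *Raet1e*, also equal in island length (32.6 and 27.6 kb). *Pax4* was closest to *Csn1s1*, a casein gene, with islands of 14.4 kb in A2a and 9.4 kb in D1. With no H3K4me3 peak at 8 members, these likenesses rest on island length and the lack of a listed peak, apart from that of *Pax6*. Among neighbours, *Slc25a21*, *Gm12462*, *Nkx2-2os* and *Pax6os1* had promoter H3K4me3 in A2a and none listed in D1. The starts of *Slc25a21* and *Nkx2-2os* lie 506 kb from that of *Pax9* and 178 kb from that of *Pax1*.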
